A study of Homo sapiens with 6 samples.

Results

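The genes described here are the 4 TCF/LEF transcription factor genes LEF1, TCF7, TCF7L1 and TCF7L2, the beta-catenin co-activator gene BCL9, the Wnt feedback and target genes AXIN2, NKD1, SP5 and TNFRSF19, and MYC, 10 genes in all. The platform annotation names 19775 genes by a probe set of their own, and 9 of the 10 are among them. They were given as a list of symbols, and every probe set that names 1 of them alone was taken, which gave 24 probe sets of the 54613 on the array and left TCF7 with none, so TCF7 was not analysed here. Messenger RNA was measured on 6 Affymetrix HG-U133 Plus 2.0 arrays of cells labelled HepG2, a line from a human liver tumour. The cells of 3 arrays had received an siRNA named for RNF43 and those of the other 3 a negative control siRNA, both by lipofection, and RNA was taken 48 h later. HepG2 is known to carry a deletion in CTNNB1 that leaves a stabilised beta-catenin, which both groups would share if the label is right. The marker signals given below do not bear that label out, and the deletion was not checked here. Each group received a single siRNA sequence. The labels call the 3 arrays of a group biological replicates without saying whether they were separate cultures, so the p-values cover only the spread between these arrays, and that may be technical.

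Beta-catenin has no DNA-binding domain of its own. When a Wnt ligand, or a mutation, keeps it from being destroyed, it enters the nucleus, binds the TCF/LEF factors and, through BCL9, recruits Pygopus and the transcription machinery to Wnt-responsive genes. Several of the genes it turns on act back on the pathway: AXIN2 rebuilds the complex that destroys beta-catenin, NKD1 acts on Dishevelled, and LEF1 is both a TCF/LEF factor and a target. In the liver this program marks the hepatocytes around the central vein, and AXIN2, NKD1, SP5 and TNFRSF19 are widely used to read it. RNF43, a ubiquitin ligase of the plasma membrane, clears Frizzled receptors from the surface and is itself a target of the pathway.

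The siRNAs that set the groups apart are shown by their antisense strands from the labels, 5′ to 3′, with bases 2 to 8, the seed, in capitals.
RNF43 siRNA: aUAAUAGCuuucuguucugtt
control siRNA: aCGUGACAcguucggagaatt

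The promoter of SP5 is shown because it is the 1 window among the members that held the core letters of a TCF/LEF motif. RefSeq windows of 250 bases before to 50 bases after a gene start (GRCh38.p14) were given for 7 of the 10 members, 11 windows in all, and not for AXIN2, NKD1 or MYC. The letters CTTTGA were searched on both strands, where they read TCAAAG on the other. They occurred in 12.9% of the 35116 windows of all genes, and 0.0997% of windows held them at least 3 times, as SP5 did. In SP5 they began 147, 109 and 83 bases before the start and are in capitals. The middle one reads CTTTGAT, a longer form that 2.62% of windows hold. A match is a description of letters and not a bound site.
SP5 promoter, chr2:170715087-170715386, plus strand: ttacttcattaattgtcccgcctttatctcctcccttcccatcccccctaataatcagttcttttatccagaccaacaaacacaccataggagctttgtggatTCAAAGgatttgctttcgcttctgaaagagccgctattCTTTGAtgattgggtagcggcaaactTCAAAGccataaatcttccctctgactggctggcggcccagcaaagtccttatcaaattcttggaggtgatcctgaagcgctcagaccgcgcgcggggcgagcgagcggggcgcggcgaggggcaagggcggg

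RNF43 itself went against its label. Its single probe set read log2 signals of 8.19, 8.22 and 8.41 on the arrays labelled RNF43 siRNA, against 7.65, 7.79 and 7.45 on the control arrays. The mean was 1.56-fold higher in the group named for its knockdown (log2 difference 0.64, SE 0.15, limma adjusted p = 0.0188). The 2 groups did not overlap, and the exact permutation test, two-sided, gave p = 0.1, the smallest that 3 against 3 arrays allow. The limma call was lost without control siRNA replicate 1 (log2 difference 0.65, adjusted p = 0.0575), without RNF43 siRNA replicate 2 (0.67, adjusted p = 0.0584) and without RNF43 siRNA replicate 3 (0.57, adjusted p = 0.0575). Directions below follow these labels, with the control arrays as the baseline, and no loss of RNF43 mRNA was measured with them.

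The cell type label was set against its markers as well, and they did not bear it out. Of 9 hepatocyte and HepG2 markers with a probe set, 8 lay under the signal filter described below, among them ALB, APOA1, TTR, SERPINA1 and FGB. AFP alone passed, at 6.41 ± 0.26 on the arrays labelled RNF43 siRNA and 7.01 ± 0.11 on the control arrays (SD, n = 3 each). Of 6 fibroblast markers, 4 passed, and 2 of them fell with the siRNA named for RNF43: the collagen gene COL3A1 (log2 difference -1.34, limma adjusted p = 2.61e-04) and the proteoglycan gene DCN (-0.54, adjusted p = 0.0102). LUM, the brightest of the list, read 13.17 ± 0.11 on the arrays labelled RNF43 siRNA and 13.36 ± 0.06 on the control arrays (SD, n = 3 each). Its log2 difference of -0.18 and that of COL1A1, -0.20, did not pass (limma adjusted p = 0.123 and 0.221). LUM made up most of the list's sum given next. The summed linear signal of the fibroblast list was 11398 to 12576 on the arrays labelled RNF43 siRNA and 14193 to 14490 on the control arrays. That of the hepatocyte list was 247 to 313 on the arrays labelled RNF43 siRNA and 320 to 446 on the control arrays. The endothelial list summed to 168 to 202 on the arrays labelled RNF43 siRNA and 122 to 161 on the control arrays, and the leukocyte list to 122 to 248 on the arrays labelled RNF43 siRNA and 138 to 212 on the control arrays. Of 3 endothelial markers PECAM1 was above the filter (log2 difference 0.25, adjusted p = 0.504), and of 4 leukocyte markers CD79A was (-0.18, adjusted p = 0.75), and neither passed the test. In bulk RNA, fewer cells of a type and less RNA per cell cannot be told apart. No marker value was at 0, and the part of these markers in the results below was not tested.

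Across the array, 4219 of 27306 probe sets tested (15.5%) changed, 2158 of them higher (7.9%) and 2061 lower (7.55%) with the siRNA named for RNF43. The higher ones made up 51.1% of the calls, and 60.6% of 3832 calls when each array was centred on its median. A probe set was tested if its mean log2 signal over the 6 arrays lay in the upper 50% (above 5.83), and called changed at a limma p-value, adjusted by Benjamini-Hochberg over all probe sets tested, under 0.05. Of the 24 member probe sets, 9 passed this filter: 6 of TCF7L2 and 1 each of LEF1, MYC and BCL9. In limma 0 of the 9 changed, and 0 had a p under 0.05 before adjustment, a mark that 28.9% of tested probe sets reached. Adjusted p over the 9 ran from 0.178 to 0.905, and the log2 differences from -0.45 to 0.45, with 4 above 0 and 5 below. With no filter, 0 of the 24 changed, against 5.96% of the 54613 probe sets, and 1 had an unadjusted p under 0.05. In that fit 0.26% of the 27307 probe sets under the filter were called, and 15 of the 24 lie there. AXIN2, NKD1, SP5, TNFRSF19 and TCF7L1 had no probe set above the filter.

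**Figure D1:**
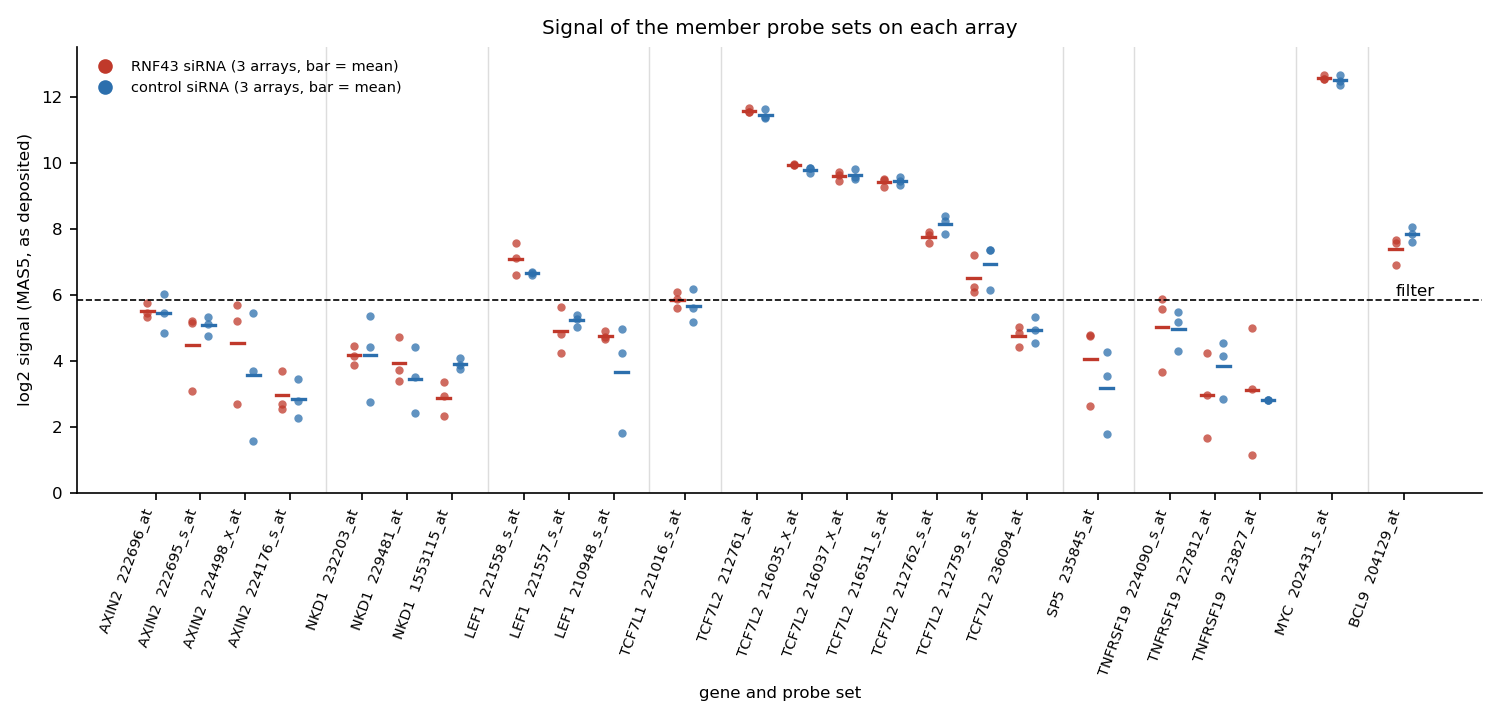
Log2 signal (y axis) of each of the 24 member probe sets (x axis, grouped by gene, brightest first), with 1 point per array and a bar at the mean, RNF43 siRNA in red on the left of each pair and control siRNA in blue on the right. The dashed line is the filter at 5.83. MYC and 4 of the TCF7L2 probe sets lie far above it with tight points, while all AXIN2, NKD1, SP5 and TNFRSF19 probe sets have means below it.

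TCF7L2, on chromosome 10, encodes the TCF/LEF factor that binds beta-catenin in adult epithelia, and it had 7 probe sets. The brightest, 212761_at, read 11.52, 11.65 and 11.52 on the arrays labelled RNF43 siRNA, against 11.38, 11.36 and 11.62 on the control arrays. The groups overlapped, since control replicate 3 lay between the other group's values. The log2 difference was 0.11 (SE 0.09, 95% confidence interval -0.08 to 0.31, limma adjusted p = 0.441), so the interval holds changes from 0.945-fold to 1.24-fold. It was 0.19 without control siRNA replicate 3, 0.06 without control siRNA replicate 2, 0.07 without RNF43 siRNA replicate 2 and 0.22 with both arrays numbered 3 left out, and did not pass.

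The next 3 TCF7L2 probe sets were nearly as tight. Probe set 216035_x_at read 9.92, 9.96 and 9.92 on the arrays labelled RNF43 siRNA, against 9.85, 9.68 and 9.84 on the control arrays. It was 1 of 2 member probe sets whose groups did not overlap, which 33.8% of tested probe sets showed, and its difference of 0.14 did not pass (interval -0.05 to 0.33, adjusted p = 0.306). Without control siRNA replicate 2 it was 0.09. Probe set 216037_x_at differed by -0.03 (interval -0.28 to 0.23, adjusted p = 0.905), with a difference of 0.01 when each array was centred on its median, and 216511_s_at by -0.04 (interval -0.27 to 0.20, adjusted p = 0.867). The endings _x_at and _s_at mark probes that may bind related or several transcripts.

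The 2 dimmer TCF7L2 probe sets above the filter had the lowest differences of the gene. Probe set 212762_s_at read 7.57, 7.82 and 7.89 on the arrays labelled RNF43 siRNA, against 8.40, 8.24 and 7.83 on the control arrays. Control replicate 3 fell inside the other group's range. The difference was -0.40 (SE 0.18, interval -0.80 to 0.00, limma adjusted p = 0.178). Without control siRNA replicate 3 it was -0.56 and passed (adjusted p = 0.0471), and with both arrays numbered 3 left out it was -0.63 (adjusted p = 0.0295). Of the 9 member probe sets above the filter it was the 1 that passed in an alternative.

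Probe set 212759_s_at spread widely within both groups. Its values were 7.20, 6.08 and 6.24 on the arrays labelled RNF43 siRNA, against 6.14, 7.35 and 7.35 on the control arrays. In each group 1 array stood apart from the other 2, on opposite sides, and the difference of -0.44 had an interval of -1.34 to 0.46 (adjusted p = 0.523). It was -0.84 without control siRNA replicate 1 and -0.78 without RNF43 siRNA replicate 1, the arrays that stood apart, between -0.31 and -0.22 without any 1 of the other 4, and -0.11 with both arrays numbered 3 left out, and it passed in none of these. The last TCF7L2 probe set, 236094_at, lay under the filter at 4.75 ± 0.31 on the arrays labelled RNF43 siRNA and 4.93 ± 0.40 on the control arrays (SD, n = 3 each). A mean over all 7 probe sets gave TCF7L2 a difference of -0.12 (adjusted p = 0.498), opposite in sign to the brightest one. Whether the probe sets differed from each other in response was not tested.

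LEF1, on chromosome 4, encodes the TCF/LEF factor that Wnt signalling itself turns on. Its brightest probe set, 221558_s_at, read 7.11, 7.57 and 6.61 on the arrays labelled RNF43 siRNA, against 6.59, 6.66 and 6.68 on the control arrays. Replicates 1 and 2 lay above all control values and replicate 3 among them. The control SD was 0.05 and the other SD 0.48, and the mean was 1.37-fold higher (log2 difference 0.45, SE 0.26, limma adjusted p = 0.29). The interval ran from 0.915-fold to 2.04-fold. Without RNF43 siRNA replicate 2 the difference was 0.21, and without replicate 3 of that group it was 0.69, and neither passed.

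The other LEF1 probe sets were under the filter and gave no common direction. Probe set 221557_s_at averaged 4.90 ± 0.70 on the arrays labelled RNF43 siRNA and 5.23 ± 0.18 on the control arrays (SD, n = 3 each). Probe set 210948_s_at averaged 4.76 ± 0.13 on the arrays labelled RNF43 siRNA and 3.67 ± 1.66 on the control arrays (SD, n = 3 each), and its difference of 1.09, the highest among the members, came with an interval of -0.82 to 3.0 in the fit with no filter (adjusted p = 0.611). Of its control values, 1.80 in replicate 1 stood far below 4.22 and 4.97 in replicates 2 and 3.

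TCF7L1, on chromosome 2, encodes the factor of the family best known as a repressor of Wnt target genes. Its single probe set lay just under the filter. It read 5.61, 6.08 and 5.86 on the arrays labelled RNF43 siRNA, against 5.19, 5.6 and 6.18 on the control arrays, so the control values spanned those of the other group. The difference was 0.19 (interval -0.69 to 1.08 with no filter, adjusted p = 0.884).

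BCL9, on chromosome 1, encodes the adaptor that joins beta-catenin to Pygopus. Its single probe set read 6.90, 7.66 and 7.58 on the arrays labelled RNF43 siRNA, against 7.61, 7.83 and 8.04 on the control arrays. Control replicate 1 lay within the other group's range. The mean was 1.37-fold lower (log2 difference -0.45, SE 0.23, interval -0.96 to 0.06), which did not pass (limma adjusted p = 0.225, range over its 18 alternatives 0.09 to 0.518). Without RNF43 siRNA replicate 1, the lowest array, the difference was -0.21.

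**Figure D2:**
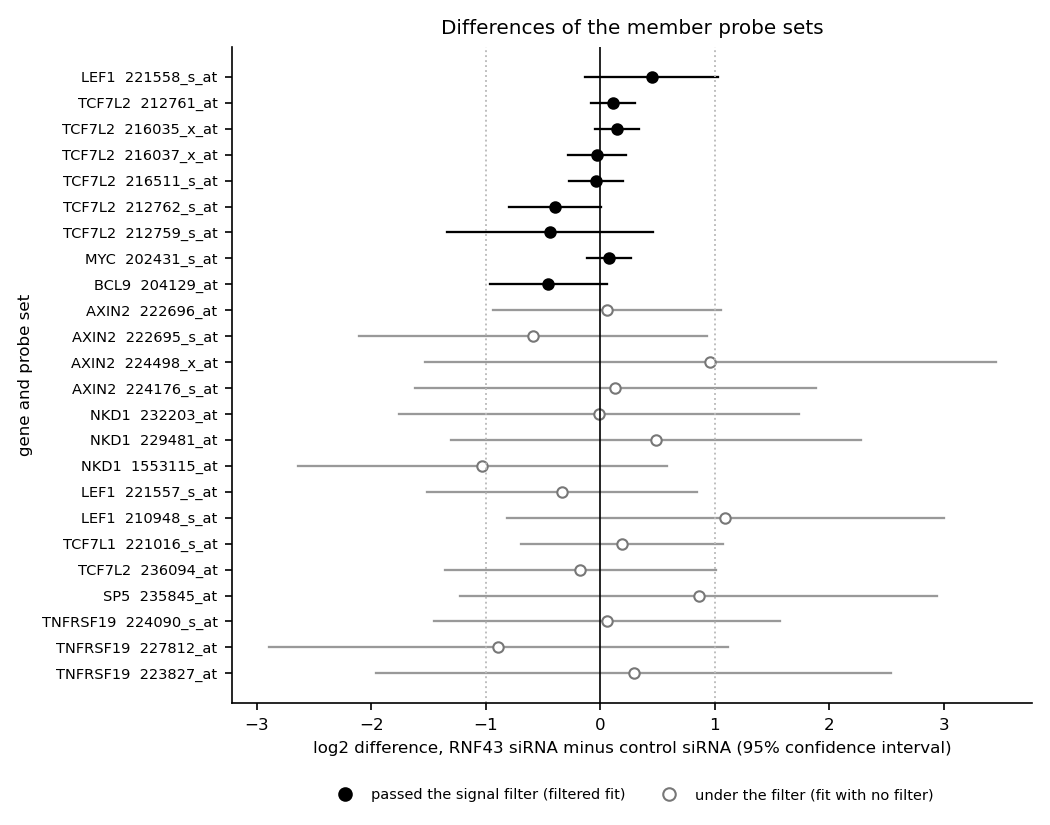
Log2 difference, RNF43 siRNA minus control siRNA (x axis), of each member probe set (y axis), with its 95% confidence interval. Filled points passed the signal filter and come from the fit on filtered probe sets, open points come from the fit with no filter, and dotted lines mark 2-fold. Of the 9 filled intervals 7 lie inside 2-fold either way, and of the 15 open ones 0 do.

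AXIN2, on chromosome 17, is the most general readout of beta-catenin activity, and all 4 of its probe sets lay under the filter. The brightest, 222696_at, read 5.34, 5.44 and 5.74 on the arrays labelled RNF43 siRNA, against 5.46, 4.85 and 6.02 on the control arrays. The groups overlapped fully, and the difference was 0.06 (interval -0.94 to 1.06 in the fit with no filter, adjusted p = 0.972). The other 3 probe sets gave differences of -0.58 for 222695_s_at, 0.96 for 224498_x_at and 0.13 for 224176_s_at, with no common sign. Probe set 224498_x_at ranged from 2.68 to 5.69 on the arrays labelled RNF43 siRNA and from 1.56 to 5.46 on the control arrays, so its difference was smaller than the spread within either group.

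NKD1, on chromosome 16, encodes an inhibitor of Dishevelled. Its brightest probe set, 232203_at, read 4.46, 3.88 and 4.15 on the arrays labelled RNF43 siRNA, against 5.35, 4.43 and 2.75 on the control arrays, and differed by -0.01 (interval -1.76 to 1.74, adjusted p = 0.997). Probe set 229481_at differed by 0.49 (interval -1.30 to 2.28). Probe set 1553115_at read 3.37, 2.92 and 2.32 on the arrays labelled RNF43 siRNA, against 3.75, 3.87 and 4.07 on the control arrays. These groups did not overlap, as for 10.6% of probe sets under the filter. Its difference of -1.03 was the lowest among the members and did not pass (interval -2.64 to 0.59, adjusted p = 0.558).

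SP5, on chromosome 2, encodes a zinc finger factor of the Sp family and carries the motif-bearing promoter shown above. Its single probe set read 4.74, 2.64 and 4.77 on the arrays labelled RNF43 siRNA, against 3.53, 1.78 and 4.26 on the control arrays. In both groups replicate 2 was the lowest array, and the groups overlapped. The difference of 0.86 had an interval of -1.22 to 2.94 (adjusted p = 0.741), which holds changes from 0.428-fold to 7.69-fold.

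TNFRSF19, on chromosome 13, encodes the orphan TNF receptor TROY, a surface protein found on Wnt-responsive stem cells of the gut. Its brightest probe set, 224090_s_at, read 5.87, 5.56 and 3.67 on the arrays labelled RNF43 siRNA, against 4.29, 5.17 and 5.47 on the control arrays, with a difference of 0.06 (interval -1.45 to 1.57, adjusted p = 0.982). Probe sets 227812_at and 223827_at differed by -0.89 and 0.29, with intervals of -2.90 to 1.12 and -1.95 to 2.54. All 3 control values of 223827_at read 2.81, while those of the other group ran from 1.15 to 5.01.

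The width of the interval followed the signal. Across all probe sets its median half-width was 2.06 log2 units at a mean signal of 3 to 4, 1.08 at 5 to 6, 0.443 at 7 to 8 and 0.166 above 12. Member probe sets under the filter had half-widths of 0.884 to 2.49, so a 2-fold change in 1 direction or the other lay inside the interval of every AXIN2, NKD1, SP5 and TNFRSF19 probe set. Among members above the filter the half-widths were 0.185 to 0.893. All these half-widths come from the fit with no filter.

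**Figure D3:**
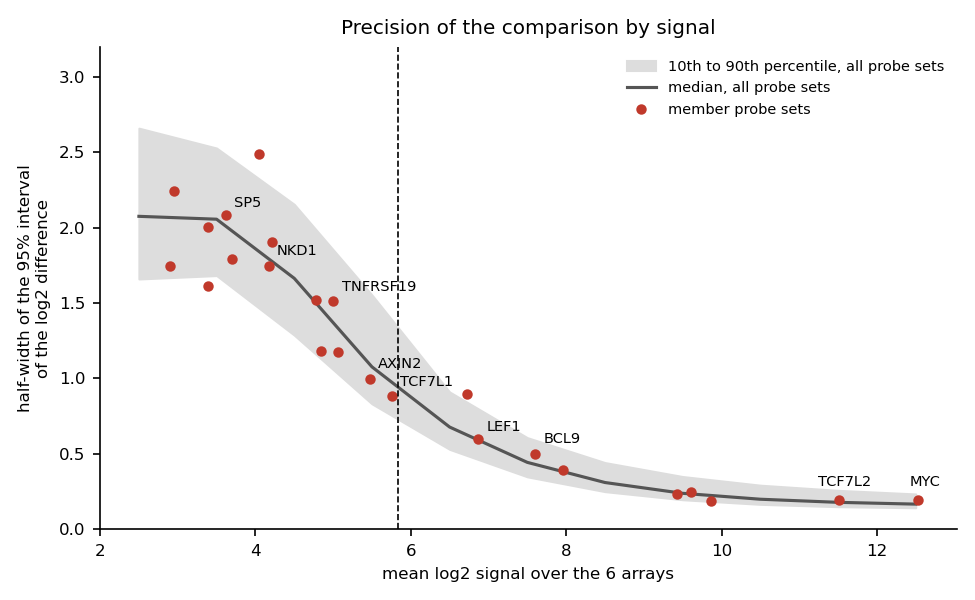
Half-width of the 95% interval of the log2 difference in the fit with no filter (y axis, log2 units) against mean log2 signal over the 6 arrays (x axis), for member probe sets (red, the brightest of each gene named) and for all 54613 probe sets (line, median; band, 10th to 90th percentile). The dashed line is the filter. MYC and the brightest TCF7L2 probe set lie at 0.19, while SP5 and NKD1 lie at 2.08 and 1.75.

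MYC, a growth-promoting transcription factor gene on chromosome 8 and a target of beta-catenin in the colon, had the brightest member probe set. It read 12.52, 12.52 and 12.66 on the arrays labelled RNF43 siRNA, against 12.48, 12.35 and 12.64 on the control arrays. The groups overlapped, and in both of them replicate 3 was the highest. The difference was 0.08 (SE 0.08, interval -0.12 to 0.27, limma adjusted p = 0.615), which bounds the change between 0.923-fold and 1.2-fold. Leaving out 1 array in turn moved the difference between 0.00 and 0.15.

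Genes that work with the members were counted in the same fit, each by its brightest probe set. By that measure 19.2% of 11853 tested genes changed, 1158 higher (9.77%) and 1117 lower (9.42%), with a median log2 difference of 0.00. Of 90 tested genes in the 8 lists, 11 rose and 9 fell (22.2%), with a median of -0.03.

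Co-activators of the TCF/LEF complex changed in 1 of 17 tested genes (5.88%), with a median of -0.11. CTNNB1, the beta-catenin gene, read 13.30 ± 0.19 on the arrays labelled RNF43 siRNA and 13.32 ± 0.14 on the control arrays (SD, n = 3 each), a difference of -0.02 (interval -0.26 to 0.22, adjusted p = 0.926). CTNNB1 was added after its value was seen. TBL1X, a subunit of the complex that exchanges co-repressors for co-activators, fell by 0.42 on the log2 scale (adjusted p = 0.0156). Of its 4 other tested probe sets, 1 was called lower. The TBL1X call was lost without control siRNA replicate 1 (adjusted p = 0.0583) or 2 (0.0689). It was also lost with arrays centred on their medians (0.0527) and with the TBL1X probe sets averaged (0.0784). The brightest XIAP probe set, of an E3 ligase that acts on the Groucho repressor, differed by -0.32 and did not pass (adjusted p = 0.0923), while 4 of its 6 other tested probe sets were called lower. SMARCA4 and PYGO2 differed by -0.18 and -0.38 and did not pass (adjusted p = 0.124 and 0.16).

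Co-repressors and inhibitors changed in 4 of 15 tested genes, 2 higher and 2 lower, with a median of -0.07. SOX7, an SRY-box factor that binds beta-catenin and holds down its targets, was 2.48-fold higher, at 9.65 ± 0.11 on the arrays labelled RNF43 siRNA and 8.33 ± 0.22 on the control arrays (SD, n = 3 each, log2 difference 1.31, SE 0.13, limma adjusted p = 3.55e-04). Its 1 other tested probe set was also called higher. HDAC1, the histone deacetylase that Groucho/TLE proteins recruit, was 1.34-fold lower (-0.42, SE 0.06, adjusted p = 0.00219). CBY1, which binds beta-catenin and blocks its pairing with TCF, differed by -0.49 (adjusted p = 0.0389), a call lost without control siRNA replicate 1 or 2 or RNF43 siRNA replicate 1 or 2 (adjusted p 0.0778 to 0.138). CTBP1, a co-repressor, differed by 0.27 (adjusted p = 0.0437), a call lost without any 1 array but control siRNA replicate 3 (adjusted p 0.0834 to 0.158), and averaging its probe sets gave -0.11. None of the 5 TLE genes passed.

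Other Wnt feedback genes had 5 of 11 members above the filter, and 2 of the 5 rose (40%), with a median of 0.39. The 2 were DKK1 and RNF43, and RNF43 is the gene the siRNA is named for, already described above. DKK1, a secreted antagonist of the LRP co-receptors, read 13.28 ± 0.05 on the arrays labelled RNF43 siRNA and 12.89 ± 0.10 on the control arrays (SD, n = 3 each, log2 difference 0.39, SE 0.07, adjusted p = 0.00548). ZNRF3, the paralogue of RNF43, and NOTUM, a secreted enzyme that inactivates Wnt, differed by 0.35 and 0.53 and did not pass (adjusted p = 0.105 and 0.146). BAMBI, the remaining tested gene, differed by -0.13 and did not pass (adjusted p = 0.466). The feedback genes NKD2, APCDD1 and LGR5 lay under the filter, like AXIN2 and NKD1.

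Of 16 tested genes among other beta-catenin targets, 3 rose and 1 fell (25%), with a median of 0.03. CCND1, the cyclin D1 gene, rose by 0.93 on the log2 scale (adjusted p = 3.40e-04), but its 1 other tested probe set was not called. Averaging its probe sets gave 0.61 (adjusted p = 0.0506). ID2, a differentiation inhibitor, rose by 0.74 (adjusted p = 0.00225), as did 1 other tested probe set. PLAUR, the urokinase receptor, rose by 0.46 (adjusted p = 0.00925), and 1 of its 2 other tested probe sets was called higher. Averaging its probe sets gave 0.16, which did not pass (adjusted p = 0.17), and its remaining probe set read -0.32 once those ending in _x_at or _s_at were left out, which did not pass (adjusted p = 0.0788). VEGFA, an angiogenic factor, fell by 0.41 (adjusted p = 0.0101), and 1 of its 3 other tested probe sets was called lower.

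Liver pericentral targets had 6 of 10 genes above the filter, of which 1 rose and 1 fell, with a median of -0.05. GLUL, the glutamine synthetase of pericentral hepatocytes, was higher by 1.37-fold on the brightest of its probe sets (log2 difference 0.45, adjusted p = 0.00778). Its 2 other tested probe sets were not called, and averaging its probe sets gave 0.16 (adjusted p = 0.656). OAT, ornithine aminotransferase, differed by -0.27 (adjusted p = 0.0457), and leaving out any 1 array ended that call (adjusted p 0.0584 to 0.142). CYP2E1 and AHR did not pass.

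**Figure D4:**
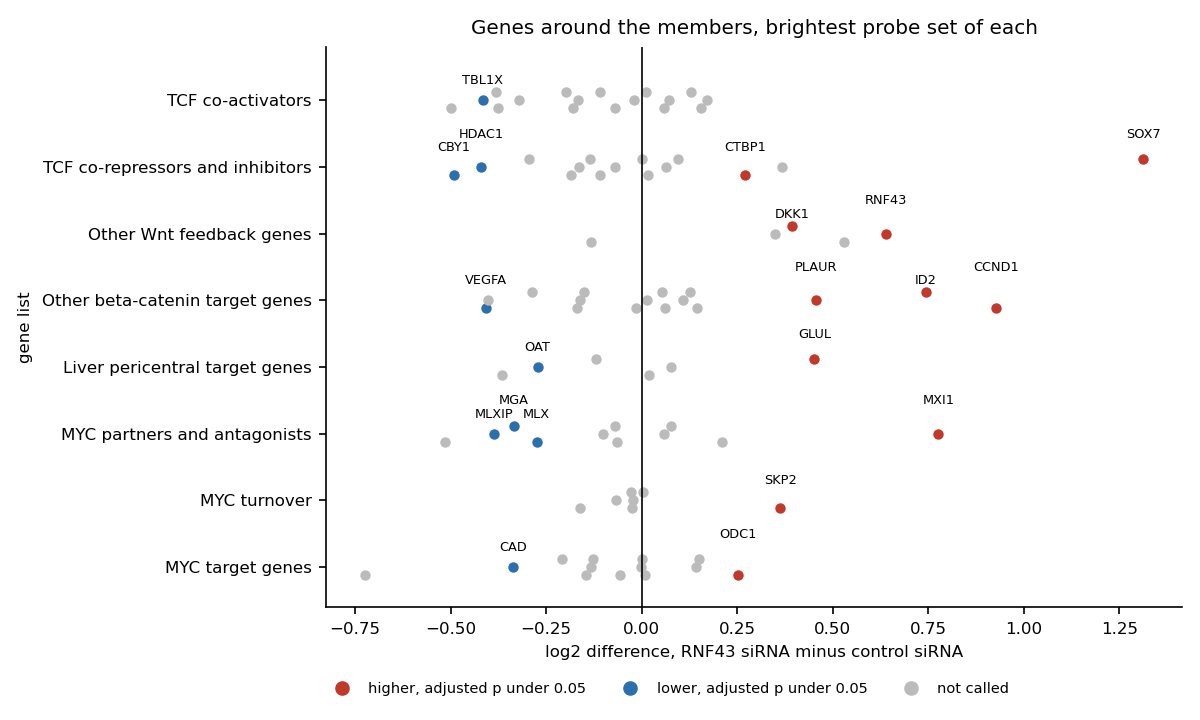
Log2 difference, RNF43 siRNA minus control siRNA (x axis), of each tested gene of 8 lists (y axis) by its brightest probe set, with genes called higher in red, lower in blue and the rest in grey. SOX7 at 1.31 and CCND1 at 0.93 stand farthest right, and 70 of the 90 genes are grey.

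Partners and antagonists of MYC changed in 4 of 11 tested genes, 1 higher and 3 lower, with a median of -0.07. MXI1, which competes with MYC for MAX, was 1.71-fold higher, at 10.54 ± 0.14 on the arrays labelled RNF43 siRNA and 9.76 ± 0.12 on the control arrays (SD, n = 3 each, log2 difference 0.78, SE 0.10, limma adjusted p = 0.00131). MGA, MLX and MLXIP, which act in the same network of MAX and MLX dimers, differed by -0.33, -0.27 and -0.39 (adjusted p = 0.0222, 0.025 and 0.0191). MGA lost its call without control siRNA replicate 1 or 2 or RNF43 siRNA replicate 1 or 3 (adjusted p 0.0504 to 0.0909). MLX lost it without replicate 1 or 2 of either group (0.0643 to 0.101). MLXIP lost it without control siRNA replicate 1 or RNF43 siRNA replicate 1 or 2 (0.0587 to 0.0702). Without control siRNA replicate 2 a different MLXIP probe set was the brightest and was read instead, at -0.03 (adjusted p = 0.907). That value does not show how the first MLXIP probe set depended on this array. Averaging probe sets gave -0.01 for MGA, -0.07 for MLX and 0.08 for MLXIP, and none passed (adjusted p = 0.988, 0.755 and 0.903). With _x_at and _s_at probe sets left out, MGA and MLX read -0.36 and -0.13 and did not pass (adjusted p = 0.613 and 0.796). MAX itself differed by -0.07 (adjusted p = 0.548) and was added after its value was seen.

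Of 7 tested genes of MYC turnover, SKP2, an F-box protein that ubiquitinates MYC, was the 1 that changed, 1.29-fold higher (log2 difference 0.36, adjusted p = 0.00502), while its 2 other tested probe sets did not pass. Averaging its probe sets gave 0.37 (adjusted p = 0.0193). USP28, GSK3B and HUWE1 did not pass. Of 13 tested MYC target genes, 1 rose and 1 fell (15.4%), with a median of -0.06. ODC1, ornithine decarboxylase, differed by 0.25 (adjusted p = 0.034) and lost its call without control siRNA replicate 1 or 2 or RNF43 siRNA replicate 2 or 3 (adjusted p 0.0733 to 0.139). CAD, an enzyme of pyrimidine synthesis, differed by -0.34 (adjusted p = 0.0394) and lost its call without any 1 array but control siRNA replicate 3 (0.0732 to 0.143). POLR1B and PTMA did not pass.

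Some of these calls also depended on the model. Without an intensity trend, those of TBL1X, CBY1, CTBP1, PLAUR, OAT, MGA, MLX, ODC1 and CAD were lost (adjusted p 0.0516 for PLAUR to 0.146 for OAT). With no signal filter CBY1, CTBP1, OAT, ODC1 and CAD did not pass (0.0605 to 0.086), with arrays centred on their medians CBY1, OAT, MLX and CAD did not (0.0623 to 0.0984), and after quantile normalisation OAT and ODC1 did not (0.0605 and 0.0676). Averaging its probe sets also ended the call of CAD (0.386), while its difference stayed at -0.35. The CAD probe sets averaged with the tested one lay under the filter. All averages named here were taken over every probe set of a gene, under the filter or not.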

How the data were processed

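The deposited values are log2 signals of 6 arrays, made by the authors with MAS5 per the submitters' processing notes, from 6 µg of RNA per sample per the labels. Its version is not given in the sources used here. Taken as base 2, trimmed linear means (2% off each end) were equal across arrays at 497.03 to 497.23, so the arrays were already scaled, and 391 to 628 values per array sat at 0, none of them in a tested or member probe set. Because MAS5 subtracts mismatch signal, dim probe sets are noisy. Detection calls and scan dates were not used here.

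Arrays were grouped by title and used as given. Pearson's r across tested probe sets was 0.98 to 0.988 within groups and 0.968 to 0.977 between groups, over probe sets, which are not independent replicates. The platform annotation gave the gene names, brought up to date by Entrez ID with RefSeq (GRCh38.p14). The comparison used limma 3.58.1 under R 4.3.3 (intensity trend, two-sided, Benjamini-Hochberg over all probe sets tested, threshold 0.05), and the steps were tested on simulated data. Named genes are RNF43, the members and the 4 smallest p-values of each list; further genes from the same lists are named as not passing or as under the filter. Members and lists were chosen with earlier results of these data known. The labels do not say whether equal numbers in the titles pair the arrays, and no batch is labelled. Deviations of equally numbered arrays correlated at 0.192, 0.0781 and 0.307, and those of differently numbered arrays at -0.26 to 0.133. The main fit left the arrays unpaired, and whether the numbers mark a shared batch was not tested. Alternatives covered scaling, added signal, filters, probe set choice, variance models, a replicate block and leaving out arrays.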

Additional observations from a re-analysis of the deposited data

How the results depend on the processing

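The count of 0 changed member probe sets held in all alternatives but the 2 that left out control siRNA replicate 3, alone or with RNF43 siRNA replicate 3, where it was 1 (range without 1 array 0 to 1). The whole-table count of 4219 was 2684 with 1 probe set per gene, 1587 with gene means and 2491 without _x_at and _s_at probe sets, which test fewer features, 2787 without an intensity trend and 6370 with the replicate block, and ran from 2238 to 4465 without 1 array. The causes of the other shifts were not tested. The 20 changed genes of the lists were 11 with gene means, 11 without _x_at and _s_at probe sets, 11 without a trend, and 10 to 19 without 1 array. RNF43's difference was 0.55 to 0.72 without 1 array and 0.48, not passing (adjusted p = 0.0673), with both arrays numbered 3 left out. Of the 19 list genes called beside RNF43, 10 stayed called without any 1 array, and 7 in every alternative that tested them. The 2 TCF7L2 probe sets nearest 0 changed sign: 216037_x_at lay between -0.089 and 0.062 without 1 array and at 0.0070 with arrays centred on their medians, and 216511_s_at between -0.092 and 0.039 without 1 array. Gene means turned TCF7L2 to -0.12, CTBP1 to -0.11 and MLXIP to 0.081, and PLAUR read -0.32 without _x_at and _s_at probe sets. With the replicate number as a block, 0 member probe sets and 25 list genes changed. 1 array, control siRNA replicate 2, deviated more like RNF43 siRNA replicate 1 than like its own number (0.133 against 0.0781). Signal over background limits AXIN2, NKD1, SP5, TNFRSF19 and TCF7L1.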
